A study of Homo sapiens with 6 samples.

Results

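The 3 neuron navigator genes (NAV1, NAV2 and NAV3) and 7 further genes of microtubule-binding proteins (STMN1, MAP4, MAP1B, MAPRE1, MAPRE3, CLASP1 and CLIP1) were followed by RNA-seq in T24 cells, an established line from a human bladder carcinoma. The genes were taken by symbol from the deposited table, where all 10 were found among 23619 rows. The list was drawn up with the fold changes of this same contrast known, so the changes and calls of these 10 genes are given as a description and lend no support of their own. Cells given 3.84 µM Caba-780, a near-infrared fluorescence imaging drug, for 24 h gave 3 libraries, and cells labelled as given no treatment gave 3 control libraries. Both groups carry the label genotype WT, and the labels do not say whether control cells received a vehicle. T24 is a single tumour line. Whether replicates came from separate cultures is not labelled, so every error and p below covers differences among libraries that may be technical only. In bulk RNA a change in the kinds of cells and a change in RNA per cell cannot be told apart.

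Microtubules are hollow polymers of tubulin whose plus ends grow and shrink. End-binding proteins such as EB1 (gene MAPRE1) and EB3 (MAPRE3) recognise growing plus ends and recruit partners there. Navigators are very large proteins of that plus-end group, named for the part of their worm relative UNC-53 in guiding growing cell processes. The CLASP and CLIP proteins also ride on plus ends, the MAPs bind along the lattice and stabilise it, and stathmin (STMN1) does the reverse by holding tubulin dimers and promoting shrinkage. In carcinoma cells these proteins are known from work on cell migration, the mitotic spindle and the response to microtubule drugs.

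The navigator genes span very long stretches of genome, and each has several annotated starts. On GRCh38, NAV1 (ENSG00000134369) lies on the plus strand of chromosome 1 from 201622885 to 201826969, NAV2 (ENSG00000166833) on the plus strand of chromosome 11 from 19350724 to 20121598, and NAV3 (ENSG00000067798) on the plus strand of chromosome 12 from 77324641 to 78213008. In the GENCODE release 29 annotation, whose coordinates and exon lengths equalled the deposited ones for all 10 genes, NAV1 has 10 transcripts, NAV2 has 17 and NAV3 has 16. Reads were counted per gene, so the start in use could not be read from these values. For each navigator, the most upstream RefSeq promoter window (build GRCh38.p14, plus strand) that lies inside the gene as counted is printed, because these 3 genes are the ones whose levels differed most. Each window runs from 250 bases before to 50 bases after a start. Capitals mark matches, on either strand, to any of 6 motifs, which were searched as plain letters and could overlap. The cyclic AMP response element was searched as TGACGTCA. The site of AP-1 factors was searched as TGACTCA. For the E-box the letters were CACGTG, a palindrome. The CCAAT box was searched by the letters in its name, the GC box as GGGCGG, and the box bound by the TATA-binding protein as TATAAA. The windows are chr1:201648416-201648715 for NAV1, chr11:19712587-19712886 for NAV2 and chr12:77830644-77830943 for NAV3.
NAV1 promoter: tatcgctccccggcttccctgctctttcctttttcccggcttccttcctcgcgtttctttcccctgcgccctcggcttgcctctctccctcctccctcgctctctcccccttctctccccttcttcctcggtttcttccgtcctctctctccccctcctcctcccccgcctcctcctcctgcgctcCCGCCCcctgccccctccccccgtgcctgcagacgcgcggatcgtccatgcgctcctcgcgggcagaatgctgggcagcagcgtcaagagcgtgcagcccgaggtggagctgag
NAV2 promoter: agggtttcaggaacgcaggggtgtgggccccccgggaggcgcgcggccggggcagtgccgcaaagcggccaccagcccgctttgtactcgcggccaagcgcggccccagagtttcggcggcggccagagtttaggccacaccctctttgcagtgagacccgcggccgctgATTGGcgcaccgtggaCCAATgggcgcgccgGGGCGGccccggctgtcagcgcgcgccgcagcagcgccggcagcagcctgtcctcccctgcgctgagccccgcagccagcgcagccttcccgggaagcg
NAV3 promoter: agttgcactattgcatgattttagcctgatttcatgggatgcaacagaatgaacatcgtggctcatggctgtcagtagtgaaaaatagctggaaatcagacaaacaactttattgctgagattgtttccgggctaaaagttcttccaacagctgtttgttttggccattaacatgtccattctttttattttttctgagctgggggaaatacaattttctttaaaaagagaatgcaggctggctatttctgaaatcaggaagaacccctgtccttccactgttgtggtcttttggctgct

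The windows differ in base composition. The NAV2 window has 74.3% G or C with 37 CG dinucleotides, and the NAV1 window 67.3% with 24. In the NAV3 window these values are 40.0% and 2, against medians of 58.7% and 14 over 35114 RefSeq promoter windows of the same length. The NAV2 window holds 2 CCAAT boxes, a motif found in 34.6% of all windows, and 1 GC box, found in 45.0%. The NAV1 window holds 1 GC box, and the NAV3 window holds none of the 6 motifs. Over all 7 navigator windows in the RefSeq table there was no match to the cyclic AMP response element, the AP-1 site, the E-box or the TATA box, which occur in 1.85%, 4.95%, 7.26% and 11.5% of all windows. A match or its absence describes letters in a short window and says nothing of which factor binds there.

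Levels are the authors' normalized counts, which are reads per gene divided by a size factor per library. Reads in genes numbered 14649171 to 15983035 in Caba-780 libraries and 14591234 to 15785965 in controls, and every navigator had at least 130 reads in every library. Control replicate 3 stood apart. At least 1 read fell in 19503 to 20308 genes of the Caba-780 libraries, in 19467 and 19845 genes of control replicates 1 and 2, and in only 13627 genes of control replicate 3. Genes with 1 to 9 reads numbered 5636 to 6100 in the other libraries but 638 in control replicate 3. The changes of the 10 genes and of the other microtubule regulators named are therefore given with and without it. Of 6 epithelial markers, the keratins KRT7, KRT8 and KRT18 reached 10 normalized counts in at least 3 libraries. The adhesion genes of that list did not: EPCAM had 0 reads in 5 libraries and 34 reads in control replicate 3, and CDH1 had 0 reads in 5 libraries and 3 reads in Caba-780 replicate 1. The keratin KRT19, also on that list, had no row. The summed epithelial level was 10660 to 14400 normalized counts with Caba-780 and 7728 to 12080 in controls. Of 6 mesenchymal and stromal markers, VIM, CDH2 and COL1A1 reached that level, and their list summed to 9478 to 10140 with Caba-780 and 10740 to 20440 in controls, highest in control replicate 3. COL1A2 had no row, and COL3A1 stayed below 10 normalized counts in every library. The part of these marker levels in the results was not tested. Of 10 urothelial markers only UPK1B, PPARG and FOXA1 reached 10 normalized counts in at least 3 libraries. The urothelial markers UPK1A, UPK2 and TP63 stayed below 10 in every library, and UPK3A, KRT5 and KRT20 had no row. Of 10 neuronal markers, SYP and SNAP25 reached that level, and the summed level of those with a row was 66.0 to 86.0 normalized counts with Caba-780 and 22.6 to 98.9 in controls. RBFOX3, a nuclear marker of mature neurons, and SYT1 stayed below 10 in every library. ELAVL3, ELAVL4, GAP43, NEFL, NEFM and INA had no row.

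All 3 navigators were higher in Caba-780 libraries than in controls, NAV3 by the most and NAV1 by the least. None of the 3 overlapped between the groups, which was also so for 31.3% of all genes tested (17.9% higher). The 7 other genes lay within 0.28 of 0 on the log2 scale with 6 libraries and within 0.35 without control replicate 3.

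NAV3, a navigator reported as deleted in cutaneous T-cell lymphoma, had 1533, 2449 and 1551 normalized counts in Caba-780 replicates 1 to 3, against 244, 134 and 451 in control replicates 1 to 3. The lowest treated library was above the highest control, and control replicate 3 was the highest of the controls. The means were 1844 ± 523 with Caba-780 and 276 ± 161 in controls (SD, n = 3 each). The change was 2.87 ± 0.46 on the log2(value + 1) scale (limma SE), or 7.31-fold. Without control replicate 3 the control mean was 189 ± 78.3 (n = 2), and the change was 3.31 ± 0.27, or 9.90-fold.

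NAV2, first described as a gene induced by retinoic acid in neuroblastoma cells, had 919, 1049 and 850.2 normalized counts in Caba-780 replicates 1 to 3, against 254, 184 and 261 in control replicates 1 to 3. The groups were far apart and each was tight, with means of 939 ± 101 with Caba-780 and 233 ± 42.4 in controls (SD, n = 3 each). The change was 2.02 ± 0.21, or 4.05-fold, and 2.11 ± 0.16 without control replicate 3. A long noncoding gene on the opposite strand inside NAV2, AC009549.1, had 26.0, 45.3 and 32.4 normalized counts with Caba-780, against 12.6, 8.23 and 1.13 in controls. The strand setting of the counting is not given in the sources used here, so reads of the pair may not be separable, and the part of AC009549.1 in the NAV2 counts was not tested.

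NAV1, which binds microtubules and is known from growing neurites, had 375, 405 and 313 normalized counts in Caba-780 replicates 1 to 3, against 276, 168 and 185 in control replicates 1 to 3. The gap between the groups was narrow, since control replicate 1 came close to the lowest treated library. The means were 364 ± 46.7 with Caba-780 and 209.7 ± 58.4 in controls (SD, n = 3 each). The change was 0.82 ± 0.26, or 1.77-fold, and 0.75 ± 0.19 without control replicate 3.

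**Figure D1:**
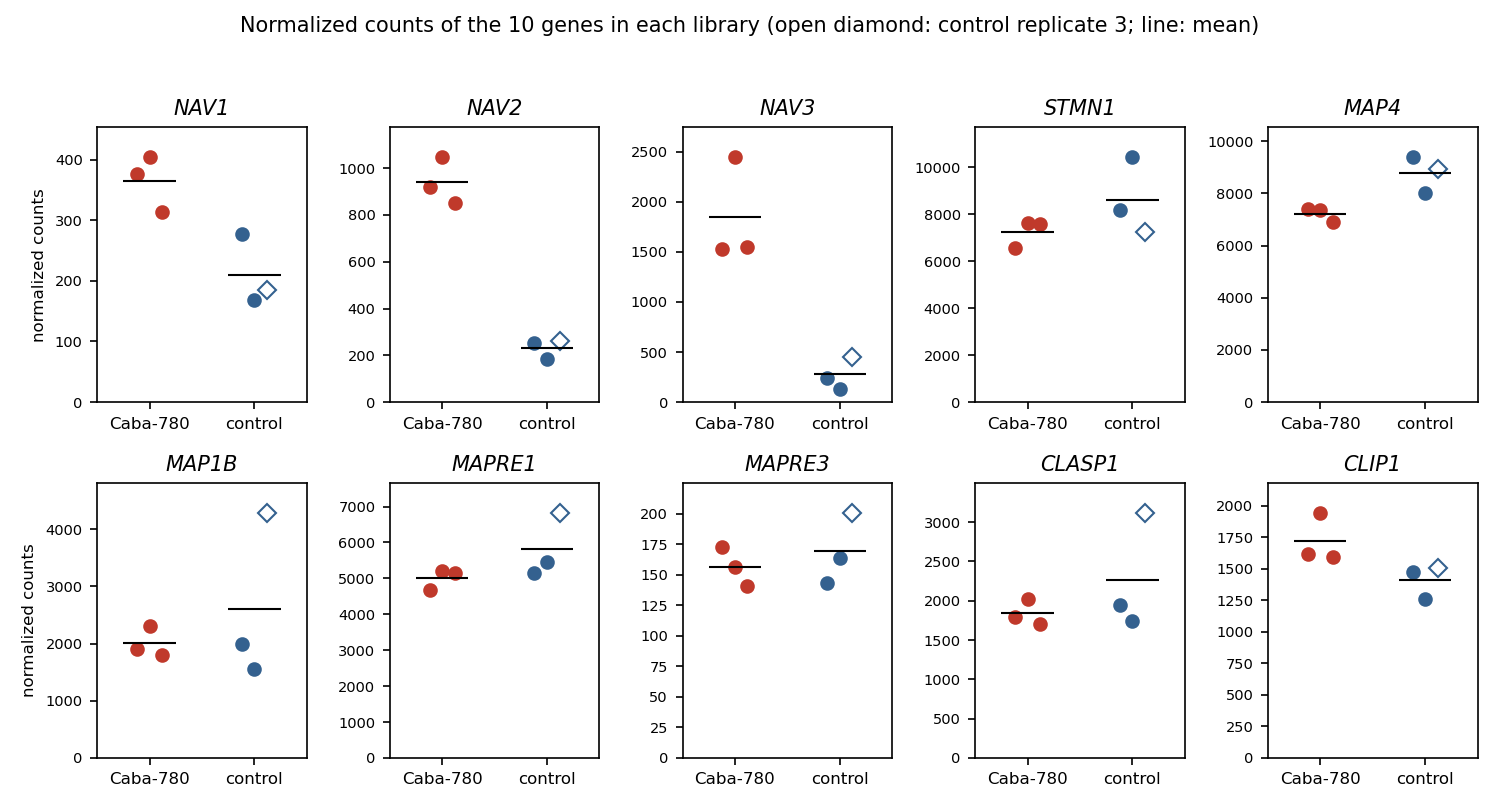
Normalized counts (vertical axes from 0, one scale per gene) of the 10 genes in each library, Caba-780 left and control right, with a line at the group mean and an open diamond for control replicate 3. NAV1, NAV2 and NAV3 are higher in all 3 Caba-780 libraries than in any control, and MAP1B and CLASP1 are highest in control replicate 3.

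As a description of the calls, limma with a Benjamini-Hochberg adjusted p under 0.05 over 13847 genes called 1 of the 10 genes, NAV2, where it called 1.00% of all genes tested (0.744% higher and 0.260% lower). NAV3 was not called in that fit, and without control replicate 3 NAV1, NAV2 and NAV3 were called, where 32.4% of 13708 genes were (17.2% higher and 15.2% lower). Since the genes were picked on this contrast, nothing is read from these counts. With 6 libraries DESeq2 called NAV2 and NAV3, where it called 8.83% of all genes (5.26% higher and 3.57% lower), and edgeR called NAV2, where it called 0.960% (0.715% higher and 0.246% lower). DESeq2 without control replicate 3 called NAV1, NAV2 and NAV3, where it called 30.6% of all genes. The authors' deposited table, in which 3.56% of rows have an adjusted p under 0.05, gives log2 fold changes of 2.74 for NAV3 and 2.01 for NAV2, both among those rows, and 0.80 for NAV1, which is not. No gene of the 10 was called lower by limma, edgeR or DESeq2 with 6 libraries (0, 0 and 1 had a lower level at an unadjusted p under 0.05), nor by limma without control replicate 3 (1 at an unadjusted p under 0.05). With 6 libraries, 5 of the 10 genes did not overlap between the groups, of which NAV1, NAV2, NAV3 and CLIP1 were higher and MAP4 was lower with Caba-780, where 31.3% of all genes tested did not overlap (17.9% higher and 13.4% lower). Without control replicate 3, STMN1 also lay lower without overlap, making 6 of 10, where 56.5% of all genes did not overlap (28.0% higher and 28.4% lower).

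The median change of all genes tested moved with the scaling, being 0.10 with the deposited size factors, 0.22 when libraries were scaled to their totals, and −0.01 under upper-quartile scaling. Relative to that median, NAV3 was higher by 2.77 to 2.78, NAV2 by 1.92 to 1.93 and NAV1 by 0.73 in these 3 scalings. Such scaling shifts all genes of a library alike, so these differences had to stay nearly the same and test nothing.

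STMN1 (ENSG00000117632, chromosome 1, 25884181 to 25906991, minus strand), the tubulin-sequestering phosphoprotein, had 6546, 7623 and 7582 normalized counts in Caba-780 replicates 1 to 3, against 8153, 10436 and 7234 in control replicates 1 to 3. The groups overlapped through control replicate 3, which had the lowest control value. The change was −0.23 ± 0.19, and −0.35 ± 0.14 without control replicate 3, and it was not called in either fit. Processed pseudogenes of STMN1 are annotated and could share its reads.

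MAP4 (ENSG00000047849, chromosome 3, 47850690 to 48089272, minus strand), the main lattice-binding MAP outside neurons, had 7384, 7369 and 6886 normalized counts with Caba-780, against 9397, 8029 and 8917 in controls. All 3 treated libraries lay below all 3 controls. The change was −0.28 ± 0.14 with 6 libraries and −0.27 ± 0.13 without control replicate 3, and neither was called. In TPM the groups overlapped, at 130.5 to 138 with Caba-780 and 130.1 to 161.5 in controls. TPM divide by gene length and also rescale each library, and the rescaling makes this difference.

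MAP1B (ENSG00000131711, chromosome 5, 72107234 to 72209570, plus strand), a MAP of growing axons, had 1905, 2311 and 1797 normalized counts with Caba-780, against 1998, 1550.5 and 4289 in controls. Control replicate 3 was far above the other 5 libraries. It decided the sign: the change was −0.25 ± 0.38 with 6 libraries and 0.18 ± 0.15 without it, and neither was called.

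MAPRE1 (ENSG00000101367, chromosome 20, 32819893 to 32850405, plus strand), which encodes EB1, had 4683, 5195 and 5148 normalized counts with Caba-780, against 5158, 5448 and 6831 in controls. The change was −0.21 ± 0.17, and −0.08 ± 0.13 without control replicate 3. MAPRE3 (ENSG00000084764, chromosome 2, 26970612 to 27027196, plus strand), which encodes EB3, had 173, 157 and 140.4 normalized counts with Caba-780, against 144, 164 and 201 in controls. Both groups of both genes overlapped, and the change of MAPRE3 was −0.10 ± 0.23, or 0.03 ± 0.20 without control replicate 3. Per length, MAPRE1 stood 37.5 to 50.8 times above MAPRE3 with Caba-780 and 46.1 to 49.7 times above it in controls, so the EB1 transcript was by far the more abundant of the pair in both groups. Processed pseudogenes of MAPRE1 are annotated and could share its reads.

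CLASP1 (ENSG00000074054, chromosome 2, 121337776 to 121649587, minus strand), which promotes the rescue of shrinking microtubules, had 1796, 2026 and 1708 normalized counts with Caba-780, against 1948, 1742 and 3122 in controls. Here too control replicate 3 was the highest library. The change was −0.26 ± 0.25 with 6 libraries and −0.0025 ± 0.14 without it. CLIP1 (ENSG00000130779, chromosome 12, 122271432 to 122422632, minus strand), which encodes the plus-end linker CLIP-170, had 1615, 1946 and 1595 normalized counts with Caba-780, against 1473, 1258 and 1506 in controls. All 3 treated libraries of CLIP1 were above all 3 controls, by 0.28 ± 0.17 with 6 libraries and 0.33 ± 0.14 without control replicate 3, and neither was called.

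**Figure D2:**
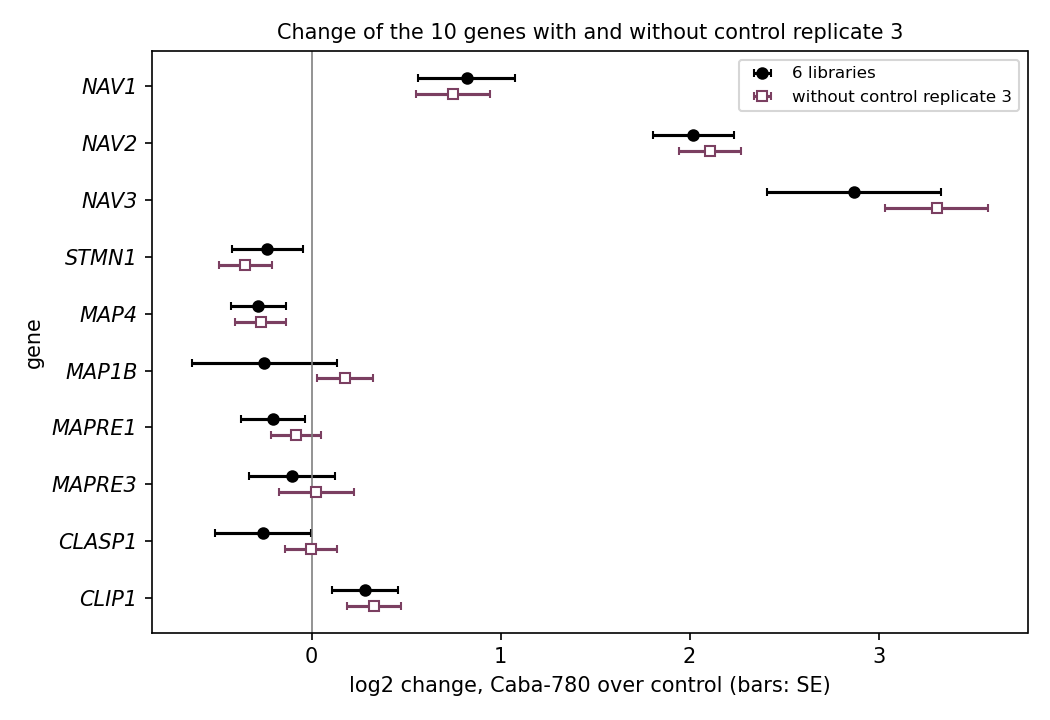
Log2 change of the 10 genes, Caba-780 over control (horizontal axis, bars SE of limma), with 6 libraries (filled circles) and without control replicate 3 (open squares). NAV3 and NAV2 lie at 2.87 and 2.02 with 6 libraries, NAV1 at 0.82, and the 7 other genes between −0.28 and 0.28.

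The genes can be ranked against each other only per length. Length-scaled levels (TPM, which sum to the same total in each library) were computed from the normalized counts and the deposited gene length. That length is the union of all annotated exons and can exceed the length of the transcript in use. Since the common total rescales each library, group differences in TPM can differ from those in normalized counts. MAPRE1 led in both groups (535 ± 31.3 TPM with Caba-780 and 544 ± 69.1 TPM in controls), followed by STMN1 (325 ± 28.0 and 338 ± 63.6 TPM) and MAP4 (135 ± 4.16 and 145 ± 15.8 TPM). Within each group these 3 did not overlap each other. CLASP1 and MAP1B came next and overlapped each other in both groups, at 46.7 ± 3.78 and 44.4 ± 5.65 TPM with Caba-780 and at 50.4 ± 15.4 and 50.6 ± 27.2 TPM in controls. CLIP1 stood at 25.9 ± 2.79 TPM with Caba-780 and 18.7 ± 2.07 TPM in controls, and MAPRE3 at 12.1 ± 1.19 and 11.4 ± 1.61 TPM.

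The navigators were the 3 lowest genes of the 10 in every control library, at 5.11 ± 2.87 TPM for NAV3, 3.91 ± 0.76 TPM for NAV2 and 2.31 ± 0.74 TPM for NAV1, and neighbours in this order overlapped. With Caba-780, NAV3 stood at 38.9 ± 10.8 TPM, overlapping CLASP1 and MAP1B and above CLIP1 in all 3 libraries. NAV2 stood at 17.9 ± 1.77 TPM, above MAPRE3 and below CLIP1 with no overlap. NAV1 stayed the lowest of the 10 genes in all 6 libraries, at 4.54 ± 0.54 TPM with Caba-780.

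**Figure D3:**
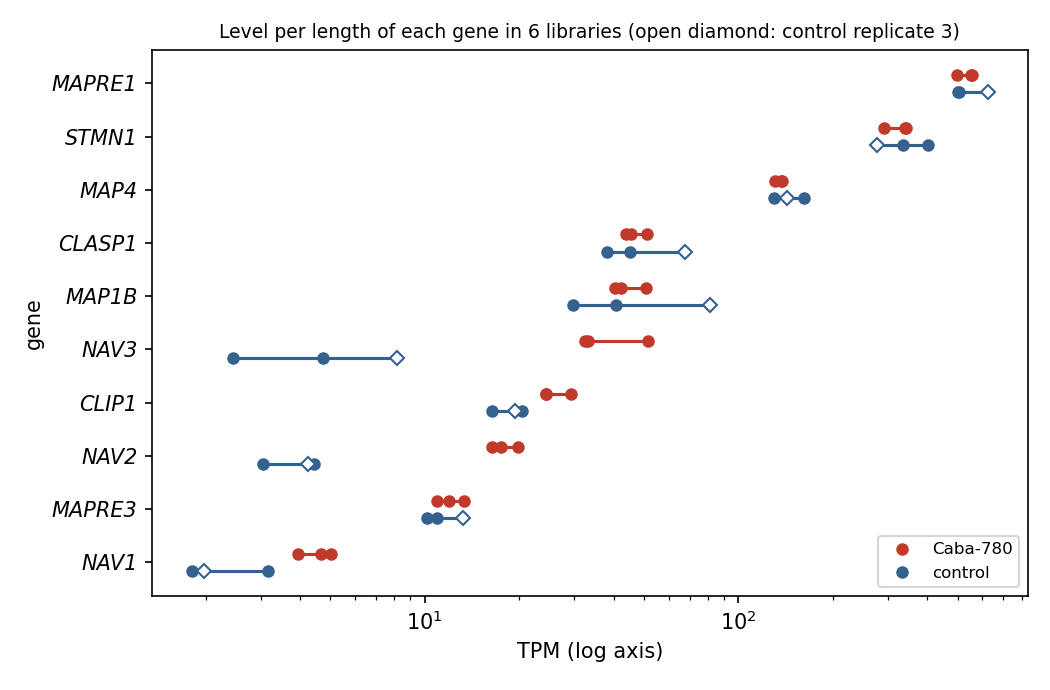
TPM of each gene in each library (log axis), Caba-780 above control within each gene, lines from the lowest to the highest library and an open diamond for control replicate 3. NAV3 spans 32.3 to 51.3 TPM with Caba-780 and 2.44 to 8.14 TPM in controls, while MAPRE1, STMN1 and MAP4 keep the first 3 places in both groups.

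The navigators together summed to 54.5, 76.2 and 53.5 TPM in Caba-780 replicates 1 to 3, against 12.3, 7.29 and 14.4 TPM in control replicates 1 to 3. The make-up of the sum differed as well. NAV3 made up 59.3%, 67.4% and 61.9% of it with Caba-780, against 38.3%, 33.5% and 56.7% in controls. Control replicate 3 came close to the treated libraries in this share while its sum stayed with the controls. NAV1 made up 8.58%, 6.57% and 7.39% with Caba-780, against 25.6%, 24.8% and 13.7% in controls. NAV2 made up 32.1%, 26.1% and 30.7% with Caba-780 and 36.0%, 41.7% and 29.6% in controls, and here the groups overlapped.

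**Figure D4:**
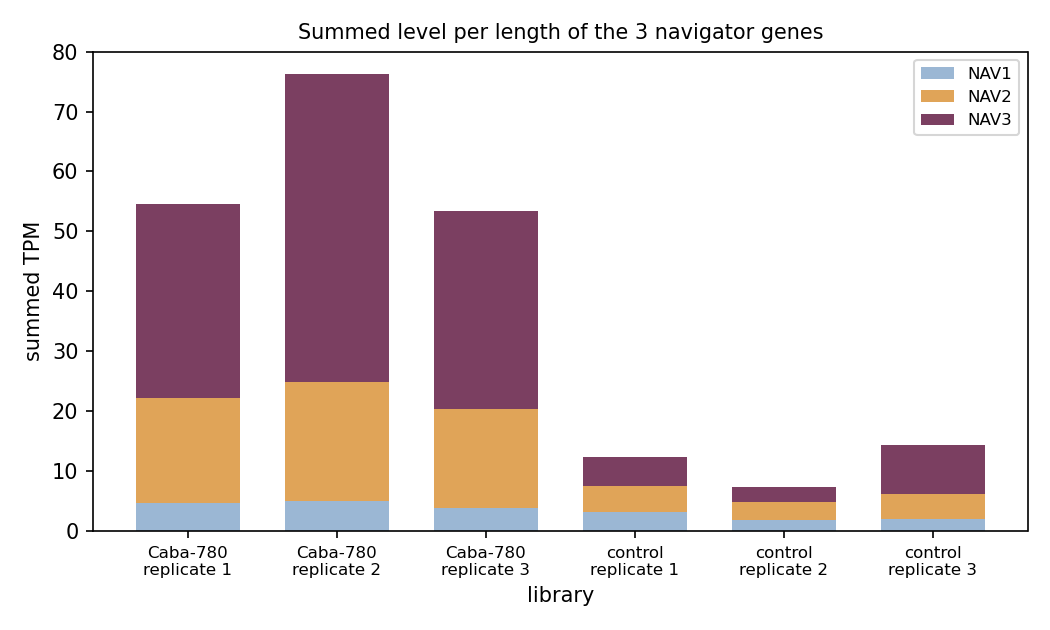
Summed TPM of NAV1, NAV2 and NAV3 in each library (bars from 0). The Caba-780 libraries reach 53.5 to 76.2 TPM and the controls 7.29 to 14.4 TPM, and NAV3 is the largest segment in all 3 Caba-780 libraries.

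The genes most like each navigator were found by the root mean square distance between log2(value + 1) profiles over the 6 libraries, each centred on its own mean, among the 13847 genes tested. All libraries are shared, so this describes likeness in size of change and in spread. For NAV2 they were KLF5 (distance 0.05 log2 units), STARD13 (0.12) and PER2 (0.14). KLF5 had 876, 1064 and 840.4 normalized counts with Caba-780, against 252, 193 and 246 in controls. For NAV3 they were ABL2 (0.30), the pseudogene ZNF887P (0.35) and BIRC3 (0.37), and each of them shared with NAV3 a maximum in Caba-780 replicate 2 and, among controls, in control replicate 3. For NAV1 they were APOL1 (0.07), F3 (0.09) and NBPF26 (0.11). The distances between navigators were 0.58 for NAV2 and NAV3, 0.63 for NAV1 and NAV2 and 1.16 for NAV1 and NAV3. The closest genes were picked as the nearest of all genes tested, so nothing is read from these distances being larger.

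Beyond the 10 genes, 107 other regulators of microtubules were placed in 6 lists by their known roles, and 90 were tested. With 6 libraries limma called DLGAP5 lower and none higher (8 higher at an unadjusted p under 0.05), or 1.11% of the 90, where 1.00% of all genes were called. On the same libraries DESeq2 called 1 higher and 4 lower, and edgeR 0 higher and 2 lower. In the fit of 5 libraries that leaves out control replicate 3, limma called 15 higher and 18 lower, 36.7% of the 90, where 32.4% of all genes were called. The median change of the 90 was then −0.04, beside −0.02 for all genes tested. These shares lie near those of all genes. The calls named next are those of limma without control replicate 3 unless stated.

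Among 18 tested plus-end trackers and partners of end-binding proteins, 2 rose and 1 fell without control replicate 3, and the median was 0.19. The share called was 16.7%, below the 32.4% of all genes. TACC1, a relative of the spindle protein TACC3, had 1301, 1570 and 1245 normalized counts with Caba-780, against 829 and 769 in control replicates 1 and 2 (0.77 ± 0.15, limma adjusted p = 0.000203), but 1305 in control replicate 3. CLIP4, a relative of CLIP1, rose by 0.84 ± 0.16 (limma adjusted p = 0.000287). CKAP5, a microtubule polymerase, fell by 0.43 (limma adjusted p = 0.0162). Both CLIP4 and CKAP5 were highest in control replicate 3, with 583 and 10740 normalized counts, and with 6 libraries limma called none of the 18 (0 higher and 1 lower at an unadjusted p under 0.05). The changes were then 0.54 ± 0.25 for TACC1, 0.43 ± 0.37 for CLIP4 and −0.73 ± 0.28 for CKAP5.

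Of 24 lattice-binding MAPs tested, 3 rose and 4 fell without control replicate 3, with a median of −0.11. That is 29.2% called, near the 32.4% of all genes. DCLK2, a doublecortin-like kinase, rose by 0.92 ± 0.22 (limma adjusted p = 0.00216). MAPT, which encodes tau, fell by 0.94 (limma adjusted p = 0.00233), with 118, 106 and 77.6 normalized counts with Caba-780, against 222 and 164 in control replicates 1 and 2. GAS2L1, a linker of actin and microtubules, fell by 0.72 (limma adjusted p = 0.00422). Control replicate 3 held 151 normalized counts of DCLK2, within the treated range of 127 to 178. It also held 49.6 of MAPT and 465 of GAS2L1, the lowest library for each. With 6 libraries the changes were 0.62 ± 0.33 for DCLK2, −0.30 ± 0.57 for MAPT and −0.17 ± 0.50 for GAS2L1, and limma called none of the 24 (1 higher and 0 lower at an unadjusted p under 0.05).

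Of 12 MAPs of the mitotic spindle, 7 fell and none rose without control replicate 3 (limma, 0 higher at an unadjusted p under 0.05), with a median of −0.63, where 15.2% of all genes fell. DLGAP5, which stabilises spindle fibres near the chromosomes, had 737, 862 and 790.3 normalized counts with Caba-780, against 2166, 2395 and 3286 in controls. It fell by 1.69 with 6 libraries (SE 0.21, limma adjusted p = 0.0338) and by 1.52 without control replicate 3. PSRC1, a partner of plus-end proteins on the spindle, had 86.0, 67.0 and 100.1 normalized counts with Caba-780, against 362, 407 and 228 in controls, and fell by 2.19 without control replicate 3 (limma adjusted p = 5.41e-09), while with 6 libraries limma missed the threshold (adjusted p = 0.0504). HMMR, a spindle-assembly factor, fell by 1.26 without control replicate 3 (limma adjusted p = 7.73e-07). Its change with 6 libraries was −1.66 ± 0.37, which limma did not call, and that of PSRC1 was −1.94 ± 0.30. On those 6 libraries DESeq2 called 4 of the 12 lower, HMMR and PSRC1 among them, where 3.57% of all genes were called lower. There edgeR called 2 of the 12 lower, PSRC1 among them, where 0.246% of all genes were. STMN1 and MAP4, which also act in mitosis, were not called.

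Of 8 stathmin relatives and severing enzymes tested, the fidgetin-like ATPase gene FIGNL1 (0.54 ± 0.15, limma adjusted p = 0.00761) and KATNA1 (0.43 ± 0.16, limma adjusted p = 0.0472) rose without control replicate 3, and the severing enzyme SPAST fell by 0.44 (limma adjusted p = 0.0332). These calls are 37.5% of the 8, where 32.4% of all genes were called. KATNA1 encodes the catalytic subunit of katanin. FIGNL1 and SPAST were both highest in control replicate 3, with 1545 and 1039 normalized counts. With 6 libraries limma called none of the 8 (1 higher and 1 lower at an unadjusted p under 0.05), and the changes were 0.12 ± 0.37 for FIGNL1, 0.45 ± 0.19 for KATNA1 and −0.72 ± 0.28 for SPAST. Of 10 genes of MAP-phosphorylating kinases or their activators, 5 rose and 2 fell without control replicate 3. The 5 include CDK5R1, which encodes an activator of CDK5. In that fit 17.2% of all genes rose and 15.2% fell, and the median of the 10 was 0.36. With 6 libraries limma called none of the 10 (4 higher and 0 lower at an unadjusted p under 0.05). Without control replicate 3, the MAP-detaching kinases MARK1 (0.72 ± 0.18, limma adjusted p = 0.00331) and MARK3 (0.51 ± 0.14, limma adjusted p = 0.00559) rose. Of the same family, MARK4 fell by 0.40 (limma adjusted p = 0.0462), and MARK2 was not called (0.12 ± 0.14). MARK4 was lowest in control replicate 3, with 174 normalized counts. CDK5, a kinase of tau and other MAPs, fell by 0.64 (limma adjusted p = 0.00173), but control replicate 3, at 499.6 normalized counts, was within the treated range of 446 to 509.5. With 6 libraries the changes were −0.45 ± 0.22 for CDK5, 0.58 ± 0.22 for MARK1 and 0.48 ± 0.15 for MARK3. Those of MARK2 and MARK4 were 0.49 ± 0.33 and 0.26 ± 0.55. MARK3 had 1767, 1784 and 1677 normalized counts with Caba-780, against 1209, 1244 and 1283 in controls. With 6 libraries limma did not call MARK3 (adjusted p = 0.196). DESeq2 on the same libraries called it higher (adjusted p = 0.00835), where 5.26% of all genes were called higher.

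Of 18 tubulin-modifying enzymes tested, 3 rose and 3 fell without control replicate 3, with a median of 0.11. The share called, 33.3%, lies near the 32.4% of all genes. HDAC6, a tubulin deacetylase, fell by 0.87 (limma adjusted p = 5.07e-05), with 619, 524 and 585 normalized counts with Caba-780, against 1091 and 1017 in control replicates 1 and 2. Control replicate 3, at 558, was within the treated range. The glutamylases TTLL4 (0.57 ± 0.15, limma adjusted p = 0.00545) and TTLL5 (0.55 ± 0.15, limma adjusted p = 0.00588) rose. With 6 libraries limma called none of the 18 (2 higher and 0 lower at an unadjusted p under 0.05), and the changes were −0.57 ± 0.29 for HDAC6, 0.46 ± 0.20 for TTLL4 and 0.48 ± 0.18 for TTLL5.

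**Figure D5:**
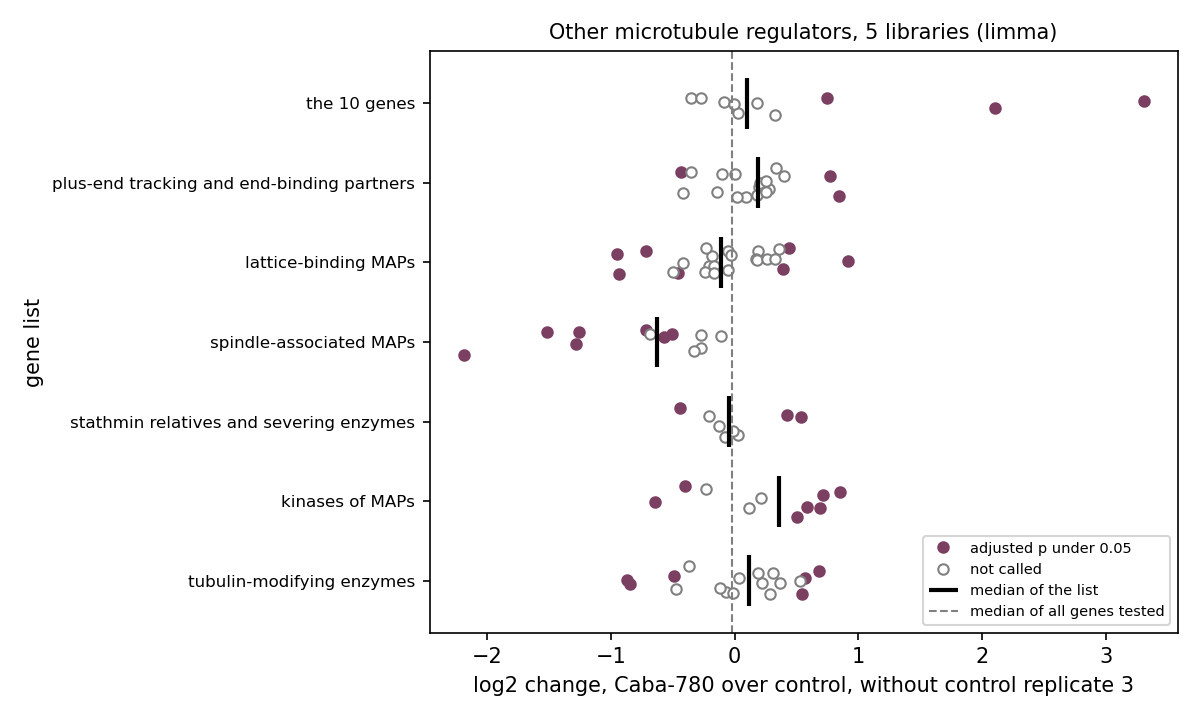
Log2 change without control replicate 3 (horizontal axis) of the 10 genes and of 6 lists of other microtubule regulators, filled where limma's adjusted p was under 0.05, with the median of each list (bar) and of all genes tested (dashed line). The spindle MAPs have a median of −0.63 and all other lists lie between −0.11 and 0.36.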

How the data were processed

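RNA-seq libraries of T24 cells (3 Caba-780, 3 control) were grouped by their titles. The submitters' processing notes name hg38 and the tools DESeq2 1.20.0, featureCounts 1.5.0-p3, HISAT2 2.0.5 and fastp. Strand setting and annotation release: not given in the sources used here. For each library the authors deposited a normalized signal per gene (its read count over the library's size factor), and 100% of values gave whole reads (tolerance 1e-06). The authors' deposited table also holds group means of this signal, log2 fold changes, p-values and gene lengths in bases (unit other).

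The contrast was fitted with limma 3.58.1 (R 4.3.3) on log2(value + 1) with trend and robust moderation, for genes reaching 10 normalized counts in 3 or more libraries, two-sided, with Benjamini-Hochberg adjusted p under 0.05 called. A fold change on this scale understates the change of low genes. Recovered reads were tested with DESeq2 1.42.0, limma-voom and the quasi-likelihood test of edgeR 4.0.16. A floor of 3 reads was 0.188 to 0.206 CPM, for counting error only. The limma, edgeR, DESeq2 and limma-voom fits were run on simulated data, with 6 libraries and without control replicate 3. The other settings were not simulated. The simulation gave all genes the same dispersion and held no library that stood apart, unlike these data. No pair of replicates looked like 1 library deposited again (chi-square per degree of freedom 9.10 to 191). The 10 genes, the lists and the rule for naming genes were chosen with earlier results of these data known. The rule named, from each list, genes called with 6 libraries and the 3 with the lowest p without control replicate 3, and for each navigator its 3 closest profiles. AC009549.1, MARK2 and MARK4 were named after their values were seen. TPM were computed from the signal and the deposited lengths. Sequences are from RefSeq, where all 10 genes matched.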

Additional observations from a re-analysis of the deposited data

How the results depend on the processing

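Over 21 alternatives, NAV1, NAV2, NAV3, STMN1, MAP4 and CLIP1 kept their sign. Their changes were, in that order, 0.68 to 1.04, 1.86 to 2.21, 2.43 to 3.41, −0.38 to −0.09, −0.38 to −0.15 and 0.18 to 0.43. NAV1, NAV2 and NAV3 were called in 5, 15 and 12 of the 21. The 5 fits that called NAV1 all leave out control replicate 3, and no fit that keeps that library called it. MAP1B, MAPRE1, MAPRE3 and CLASP1 kept their sign in 16, 20, 15 and 17, and none of these 4 was called. With 6 libraries limma called 103 genes higher and 36 lower, with 1 of the 10 genes higher and 1 other regulator lower. Leaving out 1 library gave 0 to 2359 higher and 0 to 2077 lower, 0 to 3 of the 10 genes higher, and 0 to 15 other regulators higher and 0 to 18 lower. The high end is always that without control replicate 3. Without control replicate 1 limma called 1 gene, and without control replicate 2 or any Caba-780 library 0. In these 5 fits, 1092 to 2388 genes had an unadjusted p under 0.05. The cause was not tested. Deviations from the group mean correlated at 0.303, −0.334 and −0.101 between libraries of the same replicate number. Control replicate 3 differed far more from control replicates 1 and 2 (chi-square per degree of freedom 190 and 191) than these from each other (13.1). Deviations of the controls therefore mostly reflect that library, and whether the numbers pair the libraries could not be decided. With the replicate number as a block, limma called 0 genes, 0 of the 10 and 0 other regulators (1563 genes at an unadjusted p under 0.05), and NAV2 had an adjusted p of 0.273. With the block and without control replicate 3 it called 2118 higher and 1773 lower, 3 of the 10 genes, and 11 other regulators higher and 14 lower. In that fit Caba-780 replicate 3 is alone in its block and adds nothing to the contrast. Hardly any residual degrees of freedom remain, so its p-values rest almost wholly on the moderation across genes. That fit is among the 21 alternatives counted above.

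DESeq2 called 729 higher and 494 lower, 2 of the 10 genes, and 1 other regulator higher and 4 lower. NAV3 joined NAV2, giving 2 of the 10 genes, also with library totals, TMM scaling, no filter beyond 1 read, a filter of 100 normalized counts, a pseudocount of 8 and limma-voom. Other regulators called lower were 2 with upper-quartile scaling, the filter of 100, the pseudocount of 8, edgeR and limma-voom. Without control replicate 3, edgeR called 2395 higher and 2042 lower (3 of the 10 genes, 15 and 18 other regulators) and DESeq2 2273 and 1924 (3 of the 10 genes, 14 and 18 other regulators). Library totals without that library gave 2950 higher and 1330 lower. The share of calls on the higher side was 68.9% there and 53.2% with the deposited size factors. Library totals without control replicate 3 also gave 4 of the 10 genes (CLIP1 added) and 19 other regulators higher and 14 lower. At the depth of these libraries, each of the 10 genes had at least 130 reads in every library.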
